A study of Mus musculus with 17 samples.

Results

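Newborn mouse testes that lacked Pld6 were compared with newborn testes that had it. The members are all 11 testis libraries taken on the day of birth (P0), of 17 libraries in the series. Of these, 7 lacked Pld6, namely 4 Pld6 KO and 3 Pld6 and Dnmt3l double knockout (DKO) libraries, and 4 had Pld6, namely 2 wild-type (WT) and 2 Dnmt3L KO libraries. The groups were formed by genotype alone, and Dnmt3l genotype was kept as a covariate, so that the effect of Pld6 was read within each Dnmt3l background. All mice were on the C57BL/6J strain, to which both mutant lines had been repeatedly backcrossed, and no other allele or agent was given. Each library was poly(A) RNA of whole testis, read as pairs of 100-base reads. Replicates are labelled as biological, with no statement of animals or litters per library, and germ cells were not isolated. The testis therefore supplied RNA of prospermatogonia together with that of Sertoli, Leydig, peritubular, vascular and blood cells, and a change in RNA per cell cannot be told apart from a change in the number of cells of a type.

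Pld6 (also known as MitoPLD or Zucchini) is a phospholipase D family protein of the mitochondrial outer membrane. In fetal and newborn male germ cells it is needed for the production of PIWI-interacting RNAs (piRNAs), small RNAs that direct the cleavage of retrotransposon transcripts and guide DNA methylation to some retrotransposons. Dnmt3l is a catalytically inactive partner of the DNA methyltransferases that set up methylation in prospermatogonia, the only germ cells of the newborn testis.

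Total fragments assigned to genes ranged from 9900346 to 23498968 per library, with a median of 11653201, and 15901 genes passed the filter on low counts. A pair of libraries stood apart in markers of germ cells. In Dnmt3L KO replicate 1 the markers of late germ cells summed to 247 CPM (fragment counts scaled to library size), against 36.7 to 113 in the other 10 libraries. In Pld6 KO replicate 1 the prospermatogonia markers summed to 133 CPM, against 229 to 495 in the others. Defining markers of newborn testis were present in every library: Sertoli markers summed to between 3481 and 5048 CPM and fetal Leydig markers to between 2003 and 4699 CPM. The median fold change of each of these lists is given with and without the library that stood apart in it.

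The knocked-out gene served as a check of the labels. Pld6 is a protein-coding gene on chromosome 11 (59783893 to 59787657 in GRCm38). Its counts were 57 and 40 for the WT libraries, 66 and 21 for Dnmt3L KO, 2, 0, 1 and 2 for the Pld6 KO libraries, and 0 for every DKO library. No library without Pld6 exceeded 2 counts and none with it had fewer than 21, so the arms did not overlap. The level was 3.95 ± 1.74 CPM (SD, n = 4) in libraries with Pld6. Since every library of the other arm lay at or below 3 counts, the level there was at least 16.1-fold lower, with an adjusted p of 0.000852 (edgeR). Dnmt3l, which was not the gene tested here, had 53 and 72 counts in WT, from 6 to 145 in Pld6 KO, and at most 3 in any Dnmt3L KO or DKO library. Its difference for loss of Pld6 was 0.29 on the log2 scale (SE 0.75, adjusted p = 0.909, edgeR), a value whose sign depended on the processing.

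Across the transcriptome, few genes were called for loss of Pld6 with the main test, and the count depended on the test. At a false discovery rate under 0.05 and a fold change over 2, 6 of the 15901 genes were called (0.0377% of those tested), of which 4 rose (0.0252%) and 2 fell (0.0126%). Those that rose were the long non-coding RNAs 4930470H14Rik, Gm17644 and A630089N07Rik and the olfactory receptor pseudogene Olfr856-ps1. Those that fell were Pld6 itself and Eif3j1, which encodes a subunit of translation initiation factor 3. No gene passed the adjusted threshold with a fold change under 2. The unadjusted p was under 0.05 for 1027 genes in the higher direction (6.46%) and 608 in the lower direction (3.82%), and the median log2 fold change of all genes tested was -0.00044. The DESeq2 Wald test, an alternative, called 50 genes, 47 higher and 3 lower, including all 6.

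Among the called genes, the largest rise belonged to 4930470H14Rik (chromosome 17, 4044658 to 4082995), a long non-coding RNA. It had 182 and 189 counts in WT against 296 and 371 for Dnmt3L KO. In Pld6 KO it had 1192, 2241, 2362 and 3002 counts, and in DKO 2844, 1955 and 6533. Every library without Pld6 lay above every library with it, and the Dnmt3L KO libraries lay above both WT libraries. The level rose from 22.4 ± 8.15 CPM (SD, n = 4) to 215 ± 80.0 CPM (SD, n = 7), a log2 fold change of 3.35 (SE 0.31, adjusted p = 0.000503, edgeR).

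Olfr856-ps1 (chromosome 9, 19657039 to 19658680), annotated as a transcribed pseudogene of an olfactory receptor, behaved alike. Its counts were 441 and 313 in WT, 590 and 454 in Dnmt3L KO, 1636, 3111, 1963 and 3323 in Pld6 KO, and 2804, 1762 and 4831 in DKO. The arms again did not overlap, and the Pld6 KO mean of 221 ± 88.9 CPM (SD, n = 4) was close to the DKO mean of 212 ± 83.1 CPM (SD, n = 3). The log2 fold change was 2.51 (SE 0.29, adjusted p = 0.00229, edgeR).

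Gm17644 (chromosome 1, 12667563 to 12673090), a long non-coding RNA, had 242 and 245 counts in WT, with 302 and 368 for Dnmt3L KO, against 838, 1048, 549 and 1226 in Pld6 KO and 1451, 1053 and 1756 in DKO. It rose by 1.89 on the log2 scale (SE 0.26, adjusted p = 0.0143, edgeR), from 24.9 ± 5.46 CPM (SD, n = 4) to 90.1 ± 36.5 CPM (SD, n = 7), with no overlap. The call for Gm17644 was lost when either WT library or either Dnmt3L KO library was left out, with adjusted p between 0.0538 and 0.102 and log2 fold changes of 1.86 to 1.96.

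A630089N07Rik (chromosome 16, 98062512 to 98082439), another long non-coding RNA, had 178 and 207 counts in WT, 197 and 214 in Dnmt3L KO, 493, 478, 385 and 512 in Pld6 KO and 676, 420 and 1152 in DKO. The spread among the 4 libraries with Pld6 was narrow, 17.1 ± 1.43 CPM (SD, n = 4), against 45.1 ± 13.98 CPM (SD, n = 7) without Pld6. The log2 fold change was 1.41 (SE 0.20, adjusted p = 0.0156, edgeR). Leaving out any of the 4 libraries with Pld6 also ended this call, with adjusted p between 0.0787 and 0.118, as did the replicate block (adjusted p = 0.0706).

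For all 4 transcripts that rose, after scaling to library size, the highest Pld6 KO library was replicate 4 and the highest DKO library was replicate 1. None was comparably abundant in leptotene/zygotene (L/Z) spermatocytes, the meiotic germ cells of the same series: 4930470H14Rik had 0 counts in all 6 of those libraries, which allows up to 3 counts each, Olfr856-ps1 had 2 to 15, Gm17644 had 0 to 4, and A630089N07Rik had 5 to 41 counts. The stages were read and quantified separately, so these levels are given side by side only.

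**Figure D1:**
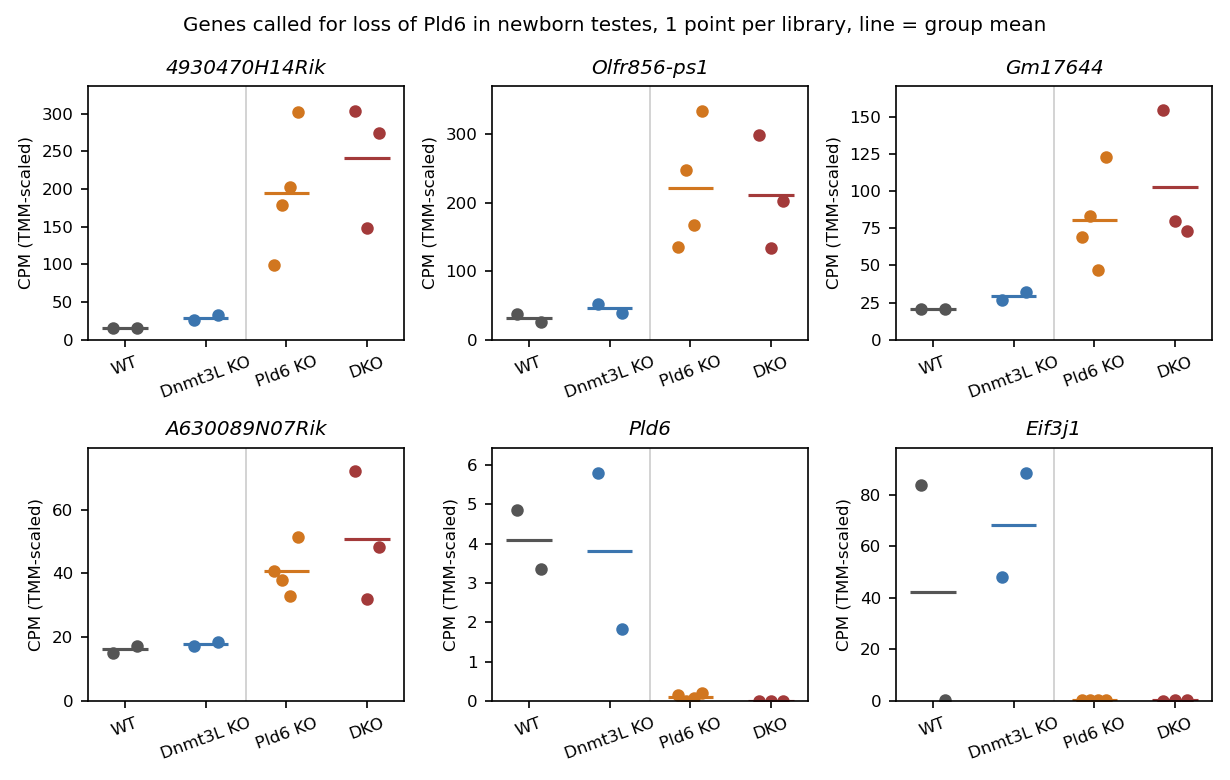
Level of each called gene in the 11 newborn testis libraries, in TMM-scaled CPM on linear axes that start at 0, by genotype; points are libraries and horizontal lines are group means. The 4 transcripts that rose are higher in all 7 libraries without Pld6 than in any of the 4 with it, whereas Eif3j1 is near 0 in WT replicate 2 as well.

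The rises could be read separately with and without Dnmt3l, in contrasts that share no library. For 4930470H14Rik the log2 fold change was 3.64 (SE 0.43) between Pld6 KO and WT and 3.05 (SE 0.42) between DKO and Dnmt3L KO. For Olfr856-ps1 the corresponding values were 2.79 (SE 0.40) and 2.21 (SE 0.40). Gm17644 gave 1.97 (SE 0.37) and 1.81 (SE 0.38), and A630089N07Rik gave 1.33 (SE 0.28) and 1.497 (SE 0.29). The difference between the backgrounds was -0.58 (SE 0.52) for 4930470H14Rik and -0.58 (SE 0.51) for Olfr856-ps1, each slightly larger than its SE. It was smaller than its SE for Gm17644 and A630089N07Rik, at -0.16 (SE 0.50) and 0.17 (SE 0.39). Adjusted interaction p-values were 0.656 to 0.913 for these 4 transcripts (edgeR), which does not show that the effects were equal.

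**Figure D2:**
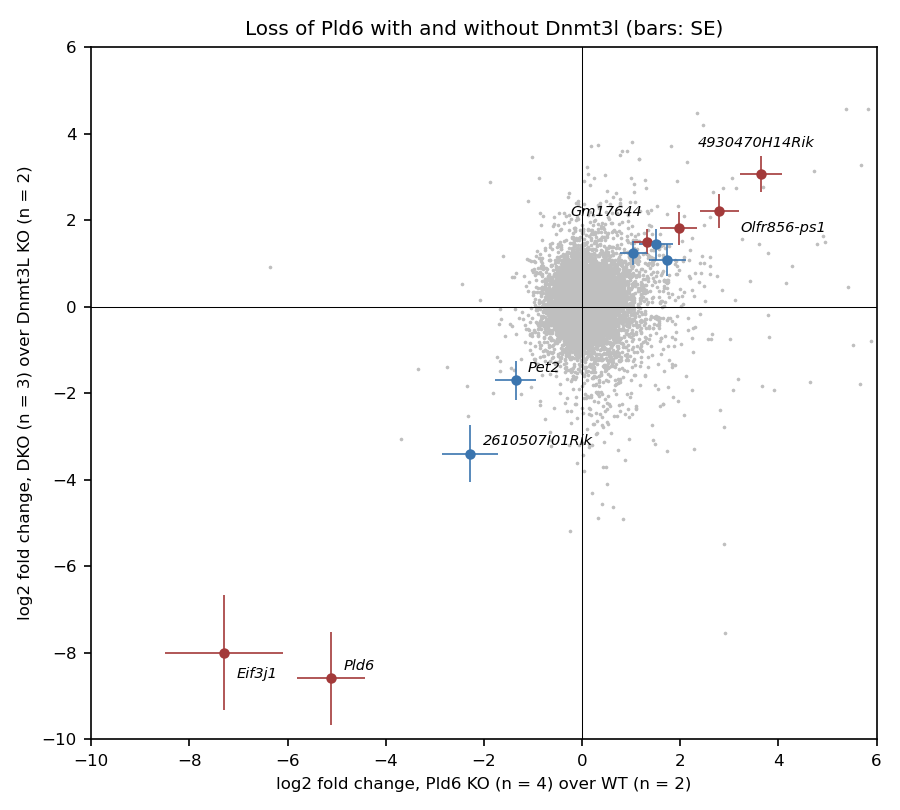
Log2 fold change for loss of Pld6 in mice with Dnmt3l (horizontal) and without it (vertical) from the fit with the interaction; grey points are all genes tested apart from 15 that lie outside the axes, red points are called genes, blue points are named genes that did not pass, and bars are SE. Each called gene has the same sign on both axes, and of those that rose 4930470H14Rik lies farthest to the upper right.

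The sequence upstream of the start of A630089N07Rik is shown because this is the transcript among those that rose for which RefSeq (GRCm38.p6) gave a promoter window. The window is chr16:98082390-98082689, minus strand, and runs 5′ to 3′ from 250 bases before to 50 bases after the start. Capitals mark matches on either strand to 4 promoter motifs, the TATA box (letters TATAAA), the CCAAT box, the GC box (letters GGGCGG) and the E-box (letters CACGTG).
A630089N07Rik: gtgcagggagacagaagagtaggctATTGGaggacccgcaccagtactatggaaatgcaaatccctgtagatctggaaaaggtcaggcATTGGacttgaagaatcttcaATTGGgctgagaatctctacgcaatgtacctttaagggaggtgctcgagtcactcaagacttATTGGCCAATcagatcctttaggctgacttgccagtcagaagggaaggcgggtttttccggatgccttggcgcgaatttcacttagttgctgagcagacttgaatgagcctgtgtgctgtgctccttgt
All 5 matches were to CCAAT or its reverse complement, and a pair of them lie back to back. At least 1 match to CCAAT was present in 37.4% of all 32851 promoter windows of this length, and 5 or more matches in 0.271%. The window held 7 CpG dinucleotides, equal to the median of all windows. No window was given for 4930470H14Rik, Olfr856-ps1 or Gm17644.

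The genes around the called transcripts were measured with the same fit. Within 200000 bases of the 4 transcripts that rose, 5 annotated neighbours were tested and none passed. Zfp317, a zinc finger gene that ends 7296 bases from Olfr856-ps1, differed by -0.07 on the log2 scale (SE 0.11). C2cd2 and Zbtb21, near A630089N07Rik, differed by 0.05 (SE 0.14) and 0.19 (SE 0.15). Sulf1, which encodes an extracellular heparan sulfate sulfatase and lies 19107 bases from Gm17644, was 0.98 higher on the log2 scale (SE 0.30), with adjusted p = 0.357 (edgeR). The other tested neighbour of Gm17644, Slco5a1, differed by -0.05 (SE 0.42). The single annotated neighbour of 4930470H14Rik had at most 1 count.

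Of the genes called lower, Eif3j1 (chromosome 2, 122028580 to 122053632) is uncertain, because Eif3j2 on chromosome 18 is a near-identical copy and Cuffdiff divides fragments between such genes by likelihood. Eif3j1 had 987 and 4 counts in WT, 546 and 1017 in Dnmt3L KO, 3 in each Pld6 KO library and 2, 3 and 7 in DKO. Eif3j2 ran the other way, with 84 and 914 counts in WT, 545 and 138 in Dnmt3L KO, and from 801 to 2248 in the 7 libraries without Pld6. Low Eif3j1 was thus also found in WT replicate 2, where Eif3j2 was high. The log2 fold change of Eif3j1 alone was -7.66 (SE 0.88, adjusted p = 0.00229, edgeR), and its call was lost with limma on FPKM (adjusted p of 0.157 and 0.212) and with the replicate block (adjusted p = 0.0805). When the counts of both copies were summed, a check chosen after seeing the data, the difference was -0.02 on the log2 scale (adjusted p = 0.949, edgeR). The sum was 91.0 ± 10.01 CPM (SD, n = 4) with Pld6 and 89.1 ± 7.23 CPM (SD, n = 7) without it.

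A second such pair was formed by Atp6v0c, which encodes the proteolipid subunit of the vacuolar proton pump, and its pseudogene Atp6v0c-ps2 (chromosome 6, 37805975 to 37807107). Atp6v0c-ps2 had 0 counts in all 4 libraries with Pld6, 1516, 956, 0 and 734 in Pld6 KO and 630, 798 and 1412 in DKO. As divided by Cuffdiff, its mean over the 7 libraries without Pld6 was at least 256-fold higher than with it. This bound covers counting error only, not the division of fragments between the copies. The pseudogene did not pass (adjusted p = 0.0894, edgeR), and Pld6 KO replicate 3 also had 0 counts. The sum of both genes was 170 ± 21.5 CPM (SD, n = 4) with Pld6 and 161 ± 28.7 CPM (SD, n = 7) without it, and the summed log2 difference was -0.10 (adjusted p = 0.796, edgeR). In both pairs the division of fragments between the copies varied among libraries and did not wholly follow the arms. Eif3j1 took 0.436% of its pair in WT replicate 2, and Atp6v0c-ps2 took 0% of its pair in Pld6 KO replicate 3. The totals of the arms differed by less than the spread between libraries. In L/Z spermatocytes Atp6v0c-ps2 had 584 and 2 counts in WT, with 828 and 0 for Pld6 KO.

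**Figure D3:**
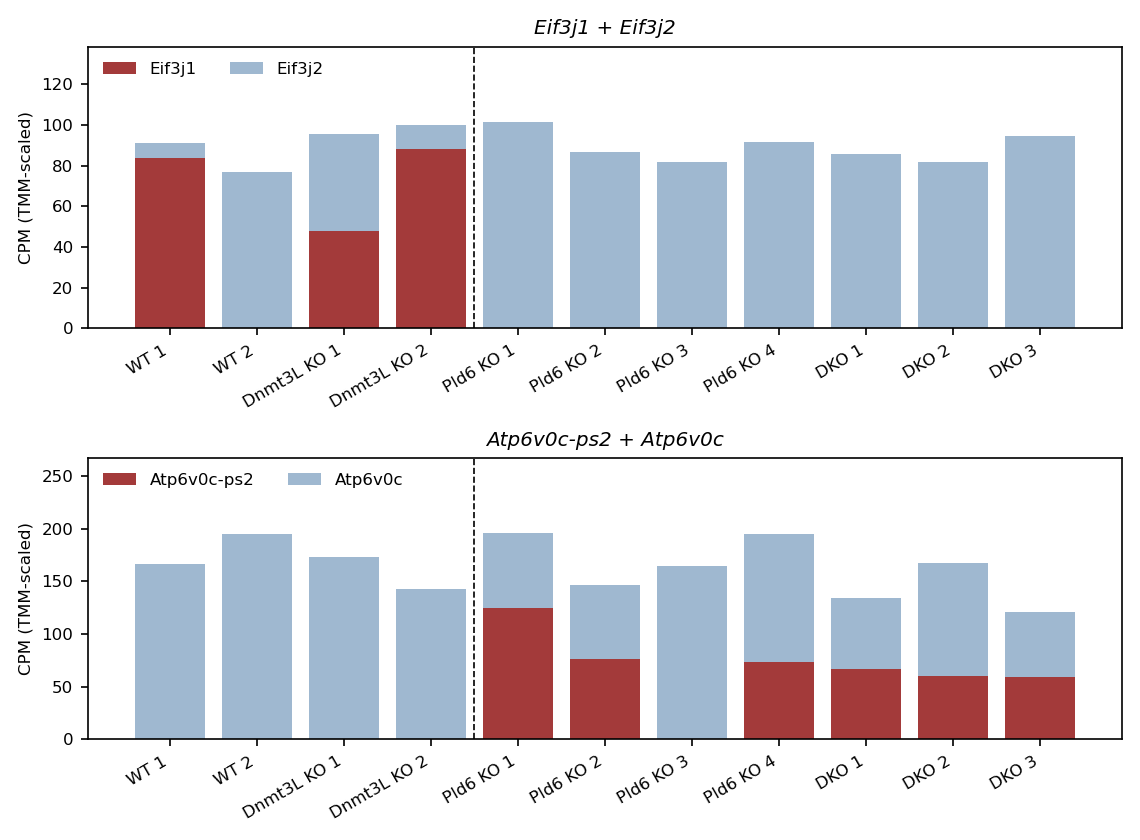
Stacked bars of TMM-scaled CPM assigned to each member of a near-identical pair in the 11 newborn testis libraries; the dashed line separates the 4 libraries with Pld6 (left) from the 7 without it (right). Bar heights of the Eif3j pair lie between 77.1 and 101 CPM in both arms although Eif3j1 is visible only to the left.

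Genes close to the threshold were added where fewer than 8 passed in a direction. Among those higher, Zfp488, a zinc finger transcription factor, had 1081 and 923 counts in WT, 1283 and 1237 in Dnmt3L KO, 2112 to 3239 in Pld6 KO and 2619 to 5001 in DKO. Its arms did not overlap, and the log2 difference was 1.47 (SE 0.25, adjusted p = 0.0623, edgeR). Grk1, rhodopsin kinase of photoreceptors, had 120 to 170 counts in the libraries with Pld6 and 226 to 531 without it, a log2 difference of 1.14 (SE 0.19, adjusted p = 0.0623, edgeR). Ccdc69, a coiled-coil protein of the mitotic spindle, had 22 to 29 counts with Pld6 and 34 to 114 without it, with a log2 difference of 1.42 (SE 0.27, adjusted p = 0.139, edgeR). Each of these passed with the DESeq2 test (adjusted p of 1.02e-06, 1.85e-05 and 0.000927), and Zfp488 and Grk1 passed with no filter on low counts (0.0200 and 0.0289).

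Genes lower without Pld6 that did not pass were led by 2610507I01Rik, which lies on the chromosome of Pld6, and Pet2, an X-linked gene first found in plasmacytomas. Pet2 had 130 and 120 counts in WT, with 139 and 179 for Dnmt3L KO, against 14, 63, 42 and 68 in Pld6 KO and 38, 54 and 109 in DKO. The level was 12.2 ± 2.38 CPM (SD, n = 4) with Pld6 and 4.19 ± 1.70 CPM (SD, n = 7) without it, with no overlap after scaling (log2 difference -1.52, SE 0.31, adjusted p = 0.146, edgeR). In Btg3, Ccdc113, Clec12b, Magea8 and Ly6k, with adjusted p of 0.373 to 0.381 (edgeR), the arms overlapped. Ly6k, a surface protein of germ cells, had 184 counts in Dnmt3L KO replicate 1 and from 6 to 18 in the other 10 libraries.

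The arms did not overlap, at any fold change, for 123 genes higher (0.774%) and 94 lower (0.591%). Of these, 34 had a fold change over 2 upward (0.214%), and 6 had one downward (0.0377%). Long non-coding RNAs made up 6 of the 34 and pseudogenes 3, while they made up 3.68% and 0.95% of the genes tested. Each of these classes also had 1 member among the 6 lower genes. The 34 include Eif3j2, whose counts are divided with those of Eif3j1. Protein-coding members of the 34 included Col1a1, the main chain of type I collagen, chosen here after its values were seen. It averaged 892 ± 182 CPM (SD, n = 4) with Pld6 and 1868 ± 502 CPM (SD, n = 7) without it, a log2 difference of 1.07 (SE 0.22) that did not pass (adjusted p = 0.152, edgeR).

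Genes on either side of Pld6 were examined next. Within 1000000 bases, 43 of 61 annotated genes were tested, and their median log2 fold change was -0.01. The unadjusted p was under 0.05 for 1 gene in the higher direction and 4 in the lower direction, and no gene passed adjustment. The genes adjoining Pld6, Mprip and Flcn, differed by 0.11 (SE 0.13) and -0.06 (SE 0.12) on the log2 scale.

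The largest difference in this interval was that of 2610507I01Rik (chromosome 11, 59197793 to 59202431), a long non-coding RNA 581462 bases from Pld6. It had 670 and 650 counts in WT, with 853 and 604 for Dnmt3L KO. In Pld6 KO it had 368, 56, 80 and 38 counts, and in DKO 50, 110 and 107. Every library without Pld6 was lower than every library with it, and Pld6 KO replicate 1 was the highest of them. The log2 difference was -2.82 (SE 0.46) with an adjusted p of 0.0578 (edgeR), just over the threshold. Without Pld6 KO replicate 1 it was -3.43 and passed (adjusted p = 2.33e-06), and it also passed with no filter on low counts and with limma on FPKM. In L/Z spermatocytes, which are separate libraries, the counts were 125 and 150 for WT, 24 and 62 for Pld6 KO, and 68 and 165 for Dnmt3L KO, or 11.7 ± 1.53, 4.19 ± 0.99 and 12.7 ± 1.27 CPM (SD, n = 2 each).

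The start of 2610507I01Rik lies 55 bases from that of Mrpl55, a gene for a protein of the large mitochondrial ribosomal subunit, which is read in the opposite direction. This window, chr11:59202382-59202681 on the minus strand, holds both starts, and its capitals mark matches to the same letters as above.
2610507I01Rik: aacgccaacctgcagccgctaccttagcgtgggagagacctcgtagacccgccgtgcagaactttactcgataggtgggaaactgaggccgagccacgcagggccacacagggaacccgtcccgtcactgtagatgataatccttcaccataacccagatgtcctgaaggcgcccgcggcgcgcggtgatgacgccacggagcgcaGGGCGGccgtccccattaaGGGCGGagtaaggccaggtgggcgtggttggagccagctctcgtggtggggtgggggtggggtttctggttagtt
Both matches were to GGGCGG, which, with its reverse complement, was present in 35.7% of all windows. The window held 25 CpG dinucleotides, against a median of 7 and an upper quartile of 20 over all windows. Mrpl55, named here after its values were seen, had 184 and 223 counts in WT, 255 and 146 in Dnmt3L KO, 219, 118, 116 and 93 in Pld6 KO, and 78, 166 and 197 in DKO. Its log2 difference was -0.70 (SE 0.23, adjusted p = 0.373, edgeR), and Pld6 KO replicate 1, which kept the most 2610507I01Rik, also had the highest Mrpl55 level of the 7, 18.1 CPM against 8.26 to 12.6.

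**Figure D4:**
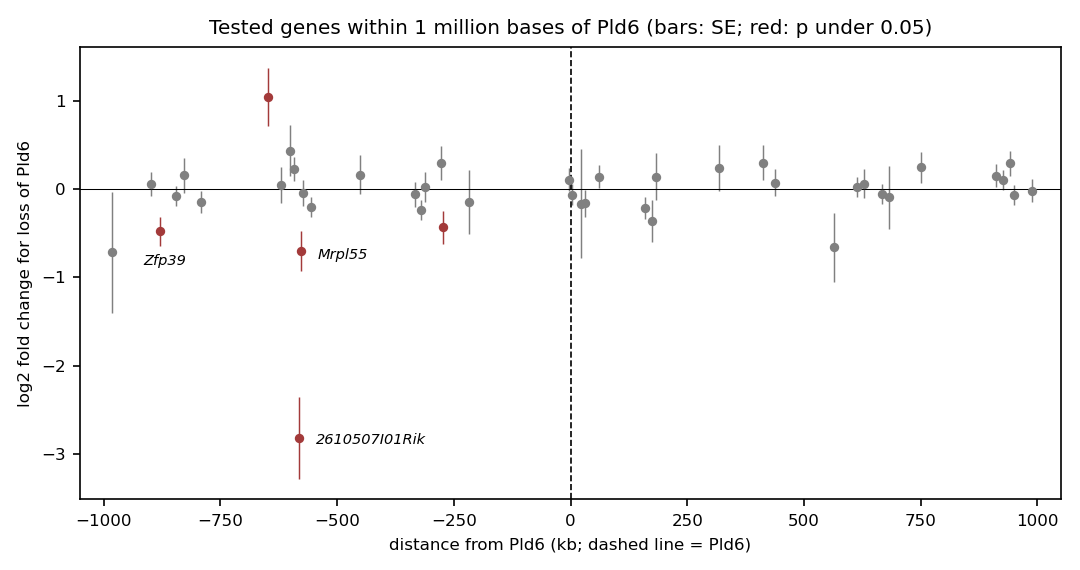
Log2 fold change for loss of Pld6 (points, with SE bars) of the 43 tested genes within 1000000 bases of Pld6, against their distance from it in kilobases; red points have an unadjusted p under 0.05. The gene 2610507I01Rik stands alone at -2.82, while the genes beside the dashed line lie near 0.

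Genes of the pathway in which Pld6 acts were measured as lists. No member of any of the 19 lists passed the threshold, and counts at an unadjusted p under 0.05 are given instead, beside 6.46% higher and 3.82% lower over all genes. List medians are taken over both Dnmt3l backgrounds, and in some lists the sign differed between the backgrounds. Of the piRNA pathway, which includes the PIWI proteins and their Tudor partners, 25 genes were tested, none had an unadjusted p under 0.05, and the median log2 fold change was -0.03. The 3 with the smallest p were Tdrd6, Tdrd12 and Piwil1, at -0.59 (SE 0.42), -0.39 (SE 0.31) and -0.71 (SE 0.57). The piRNA list's median was 0.21 between Pld6 KO and WT and -0.20 between DKO and Dnmt3L KO, a difference that was not tested. In the list of the phospholipase D family and mitochondrial dynamics, 1 of 16 genes, Pld3, was higher, by 0.32 (SE 0.14), and the median was 0.05. In the list of DNA methylation and retrotransposon silencing factors, 0 of 22 genes reached that p, and the median was 0.00112.

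Markers of germ cells gave mixed values. Of 18 prospermatogonia markers, 3 had an unadjusted p under 0.05, all higher, and the median was 0.38. They were Zbtb16 and Lin28a, genes of undifferentiated germ cells, at 1.51 (SE 0.66) and 0.98 (SE 0.39), and Nanos2, an RNA-binding protein of male germ cells. Between Pld6 KO and WT, Zbtb16 differed by 0.47 (SE 0.73) and Lin28a by 0.97 (SE 0.56). Between DKO and Dnmt3L KO, Zbtb16 differed by 3.04 (SE 0.87) and Lin28a by 1.00 (SE 0.58). Nanos2 had 0, 1, 3 and 0 counts with Pld6, 1 to 3 in Pld6 KO and 17, 11 and 66 in DKO, and of the 11 libraries only those of the DKO exceeded 3 counts. Averaged over all 7 libraries without Pld6, its level was at least 3.39-fold higher, which rests on the DKO libraries. The Pld6 KO libraries, at 0.083 to 0.257 CPM, lay within the range of those with Pld6, 0 to 0.263 CPM. The summed prospermatogonia markers ranged from 237 to 423 CPM with Pld6 and from 133 to 495 CPM without it, so the arms overlapped. Without Pld6 KO replicate 1 the prospermatogonia median was 0.51. Of 18 meiotic entry genes, 0 reached that p, with a median of -0.17. Their sum was 489 CPM in Dnmt3L KO replicate 1 and 148 to 323 CPM in the other libraries, and the median was 0.018 when that library was left out.

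Among 9 late germ cell markers tested of 18, 3 were lower, namely the sperm genes Ldhc, Crisp2 and Meig1, and the median was -0.95. Ldhc had 749 counts in Dnmt3L KO replicate 1 and 11 to 24 in the other 10 libraries. Without Dnmt3L KO replicate 1 the median turned to 0.54, and with no filter on low counts it was 0.19.

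Markers of peritubular and smooth muscle cells were higher in sign in all 9 genes, of which 6 had an unadjusted p under 0.05, and the median was 0.48. Lmod1, leiomodin of smooth muscle, had 94 and 157 counts in WT, 120 and 117 in Dnmt3L KO, 304, 183, 241 and 193 in Pld6 KO and 167, 328 and 435 in DKO. Its level was 10.5 ± 2.13 CPM (SD, n = 4) with Pld6 and 20.1 ± 3.83 CPM (SD, n = 7) without it, and the arms did not overlap after scaling (log2 difference 0.94, SE 0.19, adjusted p = 0.146, edgeR). The contractile proteins Tagln and Cnn1 were 0.86 (SE 0.26) and 0.89 (SE 0.29) higher. The summed list ranged from 994 to 1415 CPM with Pld6 and from 1349 to 2027 CPM without it, so the arms overlapped at WT replicate 2.

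Among the other somatic lists, that of the mesonephric duct and epididymis had a larger median over both Dnmt3l backgrounds, and the rest had smaller ones. Of 16 Sertoli cell markers, 3 were lower, the median was -0.12, and the 3 were Fshr, the receptor of follicle-stimulating hormone, Kitl, the ligand of Kit, and Aard, at -0.51 (SE 0.17), -0.34 (SE 0.13) and -0.57 (SE 0.22). Of 11 fetal Leydig cell and 11 macrophage markers, 0 reached an unadjusted p under 0.05, with medians of 0.11 and 0.20. Between Pld6 KO and WT the Sertoli median was -0.39 and the fetal Leydig median 0.52. Between DKO and Dnmt3L KO these medians were 0.08 and -0.34, and the differences between backgrounds were not tested. Of 8 endothelial markers, 1, the receptor Kdr, was higher, by 0.39 (SE 0.15), and the median was 0.20. Of 10 markers of the mesonephric duct and epididymis, tissue that adjoins the testis, 4 were higher, with a median of 0.65, and their sum was 70.5 to 119 CPM with Pld6 and 92.7 to 162 CPM without it. Leaving out Dnmt3L KO replicate 2 moved that median to 1.13. The part of these cells in the differences above was not tested.

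Of 8 red blood cell genes, 2 globins, Hba-a2 and Hbb-bs, were higher, and the median was 0.14. Both belong to near-identical sets, and Hba-a2 had 0 counts in 3 of the 7 libraries without Pld6 and 442 in DKO replicate 2, so these values are uncertain.

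Response genes were also listed. All 15 immediate early genes, which respond within minutes to stimuli, were higher in sign, 5 of them at an unadjusted p under 0.05, with a median of 0.49. Fos, the leading member, had 52 and 39 counts in WT, 62 and 25 in Dnmt3L KO, 125, 74, 73 and 67 in Pld6 KO and 182, 99 and 164 in DKO, without overlap after scaling (log2 difference 1.22, SE 0.35, adjusted p = 0.332, edgeR). The list's median was 0.13 between Pld6 KO and WT and 0.88 between DKO and Dnmt3L KO, a difference that was not tested. Of 21 interferon-response genes, 1 was higher (Xaf1, 1.52, SE 0.45), 1 was lower and the median was -0.16. Of 18 p53 targets and 9 genes of X inactivation and the Y chromosome, 0 reached that p, with medians of 0.04 and -0.20.

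The study drew up lists of genes that lie next to a retrotransposon active in mutant spermatocytes, chosen on the L/Z libraries. Of 13 such genes for Pld6 KO, 8 were tested in newborn testis, 2 were higher at an unadjusted p under 0.05, and the median was 0.29. Of 37 for Dnmt3L KO, 27 were tested, 4 were higher, and the median was 0.17. Tmc2, a transmembrane channel-like gene of the first list, had 2 and 3 counts in WT, 16 and 42 in Dnmt3L KO, 9, 103, 62 and 102 in Pld6 KO and 70, 99 and 138 in DKO. The WT libraries were the lowest, Pld6 KO replicate 1 lay below both Dnmt3L KO libraries, and the log2 difference of 2.55 (SE 0.69) did not pass (adjusted p = 0.281, edgeR). In L/Z spermatocytes the Tmc2 counts were 2 and 4 for WT, 54 and 77 for Pld6 KO, and 31 and 57 for Dnmt3L KO, values on which its listing rests. Capn11, a calpain protease of the testis in the other list, was 2.31 higher (SE 0.72, adjusted p = 0.357, edgeR).

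**Figure D5:**
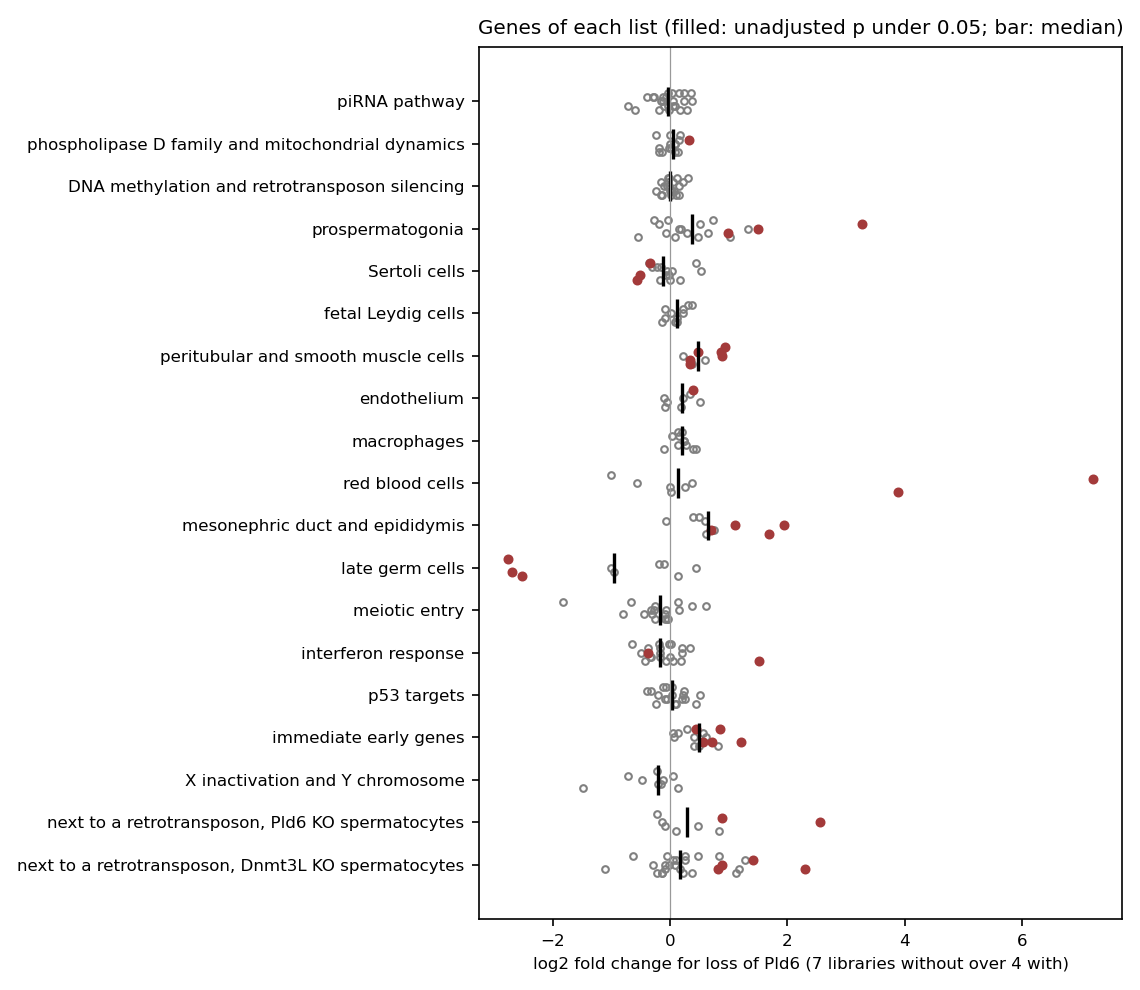
Log2 fold change for loss of Pld6 of every tested member of the 19 lists; open circles are genes with an unadjusted p of 0.05 or more, filled circles those below it, and black bars are medians. The piRNA pathway centres on 0, the peritubular and smooth muscle list and the immediate early list lie wholly to the right of 0, and the late germ cell list spreads to the left.

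Whether the effect of Pld6 depended on Dnmt3l was tested with an interaction term. It was significant for 0 genes (0% of those tested), with a smallest adjusted p of 0.341 (edgeR), while 1740 genes (10.9%) had an unadjusted p under 0.05, and DESeq2 called 54. The 3 genes with the smallest p were Pdzd2, a PDZ domain protein, Kmt2d, a histone H3 lysine 4 methyltransferase, and Zbtb20, a zinc finger repressor. Kmt2d had 290 ± 31.8 CPM in WT (SD, n = 2), 251 ± 66.0 in Pld6 KO (SD, n = 4), 140 ± 6.40 in Dnmt3L KO (SD, n = 2) and 388 ± 46.6 in DKO (SD, n = 3). Its log2 difference was -0.21 (SE 0.21) with Dnmt3l and 1.47 (SE 0.24) without it. Pdzd2 gave -0.47 (SE 0.18) and 1.07 (SE 0.20), and Zbtb20 gave -0.47 (SE 0.32) and 2.15 (SE 0.38). In all 3 genes both Dnmt3L KO libraries were the lowest of the 11, and none passed adjustment.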

How the data were processed

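RNA was measured by stranded poly(A) RNA-seq. The authors aligned reads to mm10 (GRCm38) with TopHat2 and quantified RefSeq genes in Cuffdiff (versions not given in the sources used here). The deposited tables give for each gene and library an estimated count of fragments before scaling, and the authors' FPKM, scaled to length and library. Replicates were not pooled. Replicate 0 of the table was read as replicate 1 of the labels, and so on. Genes whose status was not OK, 2 at P0, were left out. Retrotransposon copies were not analysed here.

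Counts were rounded to whole numbers, filtered with filterByExpr, scaled by TMM and tested with edgeR 4.0.16 (glmQLFit, glmQLFTest; R 4.3.3) over the 11 P0 libraries, with Dnmt3l genotype as a covariate. Genes were called at a Benjamini-Hochberg adjusted p (FDR) under 0.05 and a fold change over 2. An interaction term, with no fold threshold, gave the effects with and without Dnmt3l. The test was checked on simulated data with changes for Pld6 loss only, which cover neither a Dnmt3l effect nor a library that stands apart. The tables number the replicates of a group from 0 and the labels from 1, so single replicate names assume the same order in both, whereas the groups do not. Replicates are labelled biological, but their animals or litters are not given, so p-values measure only the spread between these libraries. Where an arm had 3 counts or fewer in every library, the fold is a lower bound against 3 counts per library; it covers counting error only. CPM are the authors' estimated counts scaled here by TMM. Levels are not corrected for length and are compared only within a gene.

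The comparison, the gene lists and the rule for naming genes were chosen with earlier results of these data known. Named genes were Pld6 and Dnmt3l; those called with 50 counts or more on average in the higher arm, up to 12 in each direction, filled to 8 per direction in order of p among genes with a fold over 2; the 3 smallest interaction p-values; the 3 smallest p-values in each list; and the 2 smallest within 1000000 bases of Pld6. Others are said to be chosen after their values were seen. Of the genes selected by this rule, 2 are not reported here. Lists were described by counts and medians, without a set test. Genes were placed by symbol or synonym in RefSeq GRCm38.p6 (23819 of 23978), which also gave promoter windows of 300 bases.

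Alternatives were DESeq2 size factors, no filter, a minimum mean of 50 counts, DESeq2 1.42.0, limma 3.58.1 on log2(FPKM + 1) and log2(FPKM + 0.1), the replicate number as a block, no covariate, the mean of both Pld6 effects, no fold threshold, and leaving out each library. Leaving out Pld6 KO replicate 1 and Dnmt3L KO replicate 1 together and summing near-identical pairs were added after seeing the data.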

Additional observations from a re-analysis of the deposited data

Results flagged for a closer look

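Among the 4 Pld6 KO libraries, 97 named genes and list sums were examined for a single library far from the other 3, and 5 were found, where chance alone gives about 1 in 20. The long non-coding RNA 2610507I01Rik had 30.4 CPM in replicate 1 and 3.82, 4.45 and 6.85 CPM in the others. Pamr1 had 29.6 CPM in replicate 4 and 10.4 to 12.1 CPM in the others. Replicate 3 stood apart in 3 genes. These were Tdrd12 (6.25 CPM against 2.62 to 2.89), Cx3cr1 (8.65 CPM against 11.8 to 12.3) and Btg3 (3.42 CPM against 0 in the others).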

How the results depend on the processing

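The call of 4930470H14Rik and Olfr856-ps1 was kept under all 21 alternatives run on them, with log2 fold changes of 3.05 to 3.49 and 2.35 to 2.75, and that of Pld6 under all 20. Gm17644 was called in 16 of 21, A630089N07Rik in 15 and Eif3j1 in 18. The 6 calls for loss of Pld6 became 10 with no filter on low counts, 50 with the DESeq2 test and 4 to 12 when each library was left out. The 12 came without Pld6 KO replicate 3, with 10 higher and 2 lower, and all 6 calls were among them. The 0 calls of the interaction became 54 with DESeq2 and 0 to 16 when each library was left out, with 16 without Pld6 KO replicate 3, 13 without Dnmt3L KO replicate 2, 2 without WT replicate 2 and 1 without WT replicate 1. The causes were not tested.

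With the replicate block, 8 genes were called, 7 higher and 1 lower, of which 4 were among the 6, and 0 for the interaction. Deviations from the group mean correlated by -0.37 to 0.29 over 13 pairs of libraries with the same number, 3 of them over 0.1. The median was -0.08, against 0.07 between different numbers. In groups of 2 libraries such deviations mirror each other, so the correlations are not independent and cannot settle whether libraries were paired. Libraries with the same number were not treated as paired in the main test. Without Pld6 KO replicate 1 and Dnmt3L KO replicate 1 together, 5 genes were called, 2 higher and 3 lower, of which 4 were among the 6.

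Signs turned for 7 named genes, none of them called. Left-out libraries moved Dnmt3l between -0.25 and 0.65, Meig1 between -3.36 and 0.52, Piwil1 between -1.01 and 0.40, Sycp3 between -1.10 and 0.0494, Pdzd2 between -0.0256 and 0.48 and Usp18 between -0.91 and 0.0342 (log2). Dnmt3l was -0.0759 and -0.41 with limma (pseudocounts 1 and 0.1), -0.63 with the replicate block and -0.0782 as the mean of both effects. Dnmt3l turned without Pld6 KO replicate 4, Meig1, Piwil1 and Sycp3 without Dnmt3L KO replicate 1, and Pdzd2 and Usp18 without Dnmt3L KO replicate 2. Without Pld6 KO replicate 1 as well, Meig1, Piwil1 and Sycp3 were 0.41, 0.64 and 0.14. Atp6v0c-ps2 summed with its parent gene was -0.10. Depth limits low genes: a gene at 3 counts or fewer in an arm could be given a bound only. Over the 19 gene lists and their alternatives, 389 values of a list median moved by less than the spread between replicates and 10 by more, 9 of them in the late germ cell list.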

Other observations

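Lars2, a mitochondrial leucyl-tRNA synthetase gene, and the gene annotated as the microRNA Mir6236 varied widely and together among libraries. Both were looked up after their values were seen. Lars2 had 2329 and 1440 counts in WT, 11781 and 6599 in Dnmt3L KO, 95570, 26164, 2542 and 65816 in Pld6 KO, and 174678, 25571 and 14187 in DKO. Mir6236 had 1, 2, 3 and 8 counts in the same libraries with Pld6, 82, 11, 0 and 151 in Pld6 KO, and 292, 47 and 24 in DKO. The log2 difference of Lars2 was 3.91 (SE 1.04, adjusted p = 0.278, edgeR) and that of Mir6236 4.84 (SE 1.34, adjusted p = 0.316, edgeR). Both also differed widely between L/Z replicates of the same genotype. The L/Z WT replicates had 315591 and 5165 Lars2 counts, with 9969 and 151 for Mir6236. Those lacking Pld6 had 196640 and 2185 Lars2 counts, with 6982 and 46 for Mir6236. Both L/Z Dnmt3L KO libraries were low, at 2036 and 3365 for Lars2 and 43 and 55 for Mir6236. The cause of this variation was not tested.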
